A study of Mus musculus with 10 samples.

Results

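The Tnf, Lta and Ltb locus was taken as the mm9 window chr17:35300000-35380000, and its members were all RelA and glucocorticoid receptor (GR) regions that overlapped it by at least 1 bp. The window held 13 of the 114312 regions in the 9 chromatin immunoprecipitation (ChIP-seq) lists of the series. Of these, 4 came from RelA at 3 h of lipopolysaccharide (LPS), 5 from RelA at 8 h of LPS and 4 from GR with LPS and dexamethasone (Dex). The other 6 ChIP lists had no region in the window, and neither had the list of input DNA, so no member was marked as shared with input.

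All libraries came from primary bone-marrow-derived macrophages of the C57BL/6J mouse strain. RelA, the p65 subunit of NF-κB, was precipitated in cells that had LPS for 0, 3 or 8 h and no Dex, in cells given Dex 3 h ahead of LPS for 0, 3 or 8 h, and after 8 h of LPS in cells given Dex late, at an hour that the labels leave out. GR was precipitated from cells given Dex and from cells given both agents, for times that the labels leave out, after cross-linking with disuccinimidyl glutarate and then formaldehyde, whereas RelA samples had formaldehyde alone. The names of the deposited lists for 0 h and for late Dex mention hours that differ from the labels or are absent from them. The labels are followed throughout, and these data do not settle which is right, so "0 h" and "late Dex" below mean the libraries so labelled. Input DNA came from untreated cells and is labelled as the control for RelA. There was 1 library per condition, so no difference below has a replicate check and no test between conditions was made. The labels do not say how many mice were pooled. Lists of binding regions carry no expression markers against which the cell type could be checked.

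Tnf encodes tumour necrosis factor, a trimeric cytokine that activated macrophages release soon after LPS reaches Toll-like receptor 4. Lta encodes lymphotoxin alpha, which as a homotrimer binds the same receptors as tumour necrosis factor, and Ltb encodes lymphotoxin beta, a membrane protein that holds lymphotoxin alpha at the cell surface in a complex that binds the lymphotoxin beta receptor. Tnf is a long-known target of NF-κB, which is kept in the cytoplasm by inhibitor proteins until LPS signalling degrades them. GR enters the nucleus when it binds Dex, and glucocorticoids are used to lower production of tumour necrosis factor. The 3 genes sit side by side in the major histocompatibility region. In the order of the RefSeq gene table (GRCm38.p6), Lst1 comes before Ltb, then Tnf and Lta follow, with Nfkbil1 after them, and the table lists microRNA genes between Ltb and Tnf (Mir6973a) and between Lta and Nfkbil1 (Mir6974).

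The sequences before the start sites are shown because RelA and GR regions fell in the window that holds these genes. They come from RefSeq on GRCm38.p6, and their coordinates cannot be set against the mm9 positions of the regions, so which region lies on which promoter is not assigned here. Capitals mark matches, on either strand, to letters searched for NF-κB (GGG, any 5 bases, then CC), the core of the macrophage factor PU.1 (GAGGAA) and the TATA box (TATAAA). The 250 bases before Tnf (chr17:35202008-35202257, minus strand), the 250 before Ltb (chr17:35194257-35194506, plus strand) and 30 bases from -85 to -56 of Lta (chr17:35205407-35205436, minus strand) read, 5′ to 3′:
Tnf: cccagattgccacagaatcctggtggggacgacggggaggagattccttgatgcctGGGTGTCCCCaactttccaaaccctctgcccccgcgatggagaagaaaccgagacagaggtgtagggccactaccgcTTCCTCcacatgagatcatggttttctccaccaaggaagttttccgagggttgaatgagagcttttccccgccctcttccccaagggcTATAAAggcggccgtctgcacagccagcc
Ltb: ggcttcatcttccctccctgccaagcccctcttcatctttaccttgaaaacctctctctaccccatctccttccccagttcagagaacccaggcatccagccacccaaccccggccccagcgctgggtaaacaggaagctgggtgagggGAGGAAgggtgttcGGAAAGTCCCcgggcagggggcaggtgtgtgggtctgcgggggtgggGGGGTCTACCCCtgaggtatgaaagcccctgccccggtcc
Lta: ggaactcctGGGCCTGACCCagctccctgc

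All 3 promoter windows, read from 250 bases before to 50 after the start, held the NF-κB letters, as did 50.8% of the 32851 promoter windows in the table, so a match is common. Tnf had 1 at -194 to -185 that reads as the motif on both strands, and 1 at 30 to 39. Ltb had 1 at -87 to -78, on the minus strand, and 4 overlapping matches within GGGGTCTACCCC, from -40 to -29. Lta had 2 overlapping matches between -76 and -66. The tighter letters (GGGA, any 4 bases, then CC), present in 20.7% of all windows, were found in Tnf (30 to 39) and in Ltb (-87 to -78) and not in Lta. GAGGAA, which 28.3% of windows hold, was found in Tnf and Ltb, and TATAAA, which 13.6% hold, in Tnf at -29 to -24 and in Lta at -167 to -162. No window of the 3 held the GR letters (GNACA, any 3 bases, then TGTNC; 0.475% of all windows) or the shorter AGAACA (19.0%), or the AP-1 letters TGANTCA (7.81%).

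The lists differed in length by orders of magnitude, which bears on what an empty window means. RelA had 4972 regions outside input at 3 h of LPS and 1878 at 8 h. Without LPS it had 47, with Dex given before LPS it had 43, 33 and 15 at 0, 3 and 8 h, and with late Dex it had 225. The GR lists held 54875 regions for Dex and 51358 for both agents. A site without a region in a list was below that list's threshold, which is not the same as free of the protein. No source used here states how deeply each library was sequenced.

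Joined where they overlapped, the 13 regions formed 5 sites, called A to E here in order of position. Site A was listed for GR alone, sites B, C and E for RelA at 3 h and 8 h and for GR with LPS and Dex, and site D for RelA at 3 h alone. All 5 lay within 32.1 kb, and the gaps between neighbours were 9277, 7067, 7463 and 421 bp. Each value below is the authors' own for that region: the tag density is the authors' measure of how many reads piled up, and the score is their z-score. The scaling between libraries is not stated.

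**Figure D1:**
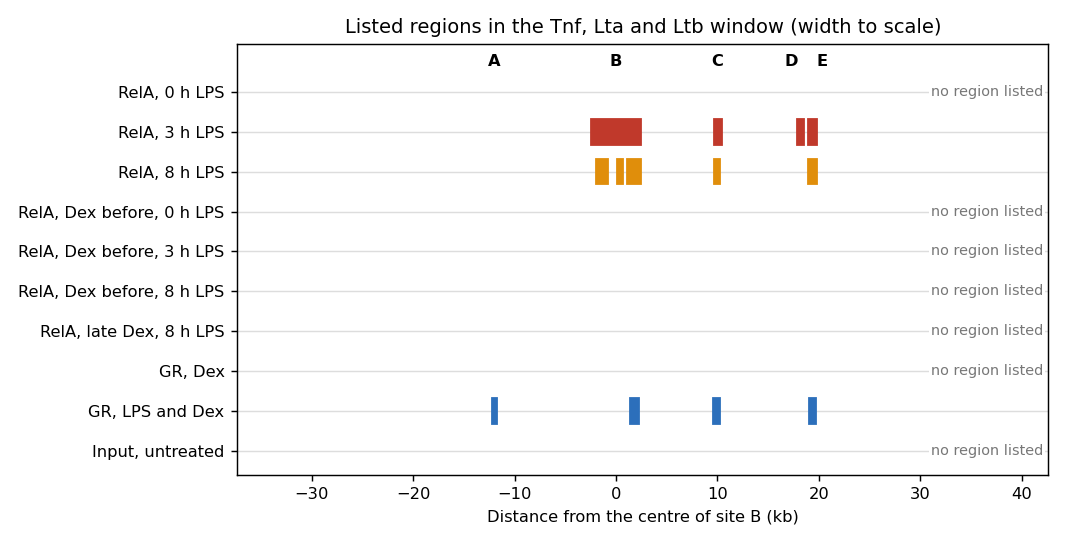
Listed regions of the window in each of the 10 libraries, by distance in kb from the centre of site B, with widths to scale and 1 library per row. Regions are seen in 3 rows only, RelA at 3 h and 8 h of LPS and GR with LPS and Dex, and the broad 3 h region of site B stands over 3 separate regions at 8 h.

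Site B was the broadest RelA region of the 3 h list. It ran from 35334857 to 35339851 on chromosome 17, a width of 4994 bp, against a median of 538 bp (quartiles 387 and 685) over the 4972 regions outside input, of which none was wider. With input-overlapping regions kept, none was wider either. The next in width were 4982 bp on chromosome 11 and 4724 bp on chromosome 5. Its highest tag density was 77.2 and its mean tag density 21.4, a ratio of 3.61 where the list's median ratio was 2.47. Its score of 56.3 ranked 55 in the list, and its highest tag density ranked 50.

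The other 3 regions of 3 h were far narrower than site B. Sites C (776 bp) and E were still wider than the upper quartile of 685 bp, and site D (623 bp) lay within the quartiles. Site E, at 35356300 to 35357221, was the stronger, with a highest tag density of 58.3, a score of 36.9 (rank 254) and a width of 921 bp. Site C, at 35347006 to 35347782, had a highest tag density of 27.3 and a score of 15.5. Site D, at 35355246 to 35355869, had 25.6 and 15.2. By score, sites C and D exceeded 64.96% and 63.2% of the list, and site E 94.9%.

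**Figure D2:**
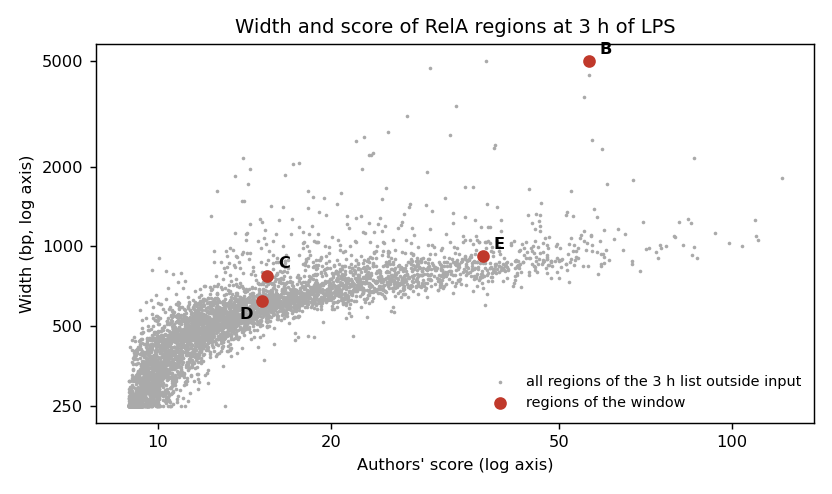
Width in bp against the authors' score, both on log axes, for the 4972 RelA regions of 3 h of LPS outside input (grey) and the 4 of the window (red). Site B lies at the top of the width range at 4994 bp, while sites C, D and E lie within the main band.

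In the library labelled 0 h none of these sites was listed. Only 0.744% of the 3 h regions met a region of the 0 h list, 37 of 4972, so 0 of 4 lies near that share. For the 8 h regions below the share was 1.92%, and 0 of 5 met one. Among the 53 regions at 3 h with a score within 10% of that of site B, itself included, 4 were listed at 0 h, 7.55% (Wilson 95% interval 2.97 to 17.9). With input-overlapping regions kept, the nearest RelA region of the 0 h list on chromosome 17 lay 988 kb above the window.

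At 8 h of LPS, RelA was listed at 3 of the 4 sites of 3 h. Over the whole list 31.3% of the 3 h regions met an 8 h region, and the share rose with score. Among regions with a score within 10% of that of the site it was 96.2% for site B (51 of 53), 87.7% for site E (135 of 154), 30.3% for site C (209 of 689) and 29.1% for site D (212 of 728). Site D was the one not listed again, and site C, close to it in score and tag density at 3 h, was listed. All 5 regions of 8 h met a 3 h region, as did 83.9% of the 8 h list.

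The broad site B was listed at 8 h as 3 separate regions. They ran from 35335419 to 35336600, from 35337461 to 35337999 and from 35338476 to 35339839, with gaps of 860 and 476 bp, and covered 61.7% of the 3 h width. Of 4972 regions at 3 h, 21 (0.422%) met 2 or more regions of 8 h and 2 (0.0402%) met 3. The other region that met 3 was on chromosome 9, 51981977 to 51983888. The 3 parts of site B were unequal: their highest tag densities were 39.8, 24.1 and 46.8 and their scores 26.4, 12.9 and 31.5, so the middle part was the weakest and the upper part the strongest. The first and the third were among the widest regions of the 8 h list, at 1181 bp (rank 15 of 1878) and 1363 bp (rank 8), and the middle part was 538 bp wide. Whether the 3 h region held the same 3 peaks could not be read from its highest and mean density.

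At sites C and E the regions of 8 h matched those of 3 h closely in place. Site C was listed from 35347024 to 35347638, with a highest tag density of 44.6 and a score of 20.95, and site E from 35356291 to 35357164, with 69.7 and 44.8. Site E had the highest score of the window at 8 h, rank 70 of 1878, and the middle part of site B the lowest, exceeded by 74.3% of the list. At 3 h the order by tag density had been B, E, C, D. At 8 h it was E, then the upper part of B, then C.

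**Figure D3:**
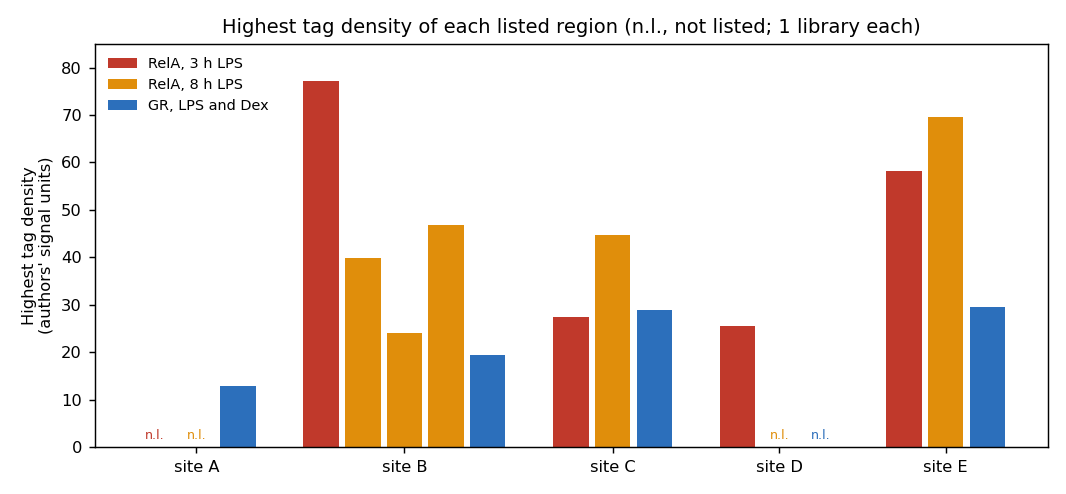
Highest tag density, in the authors' signal units, of each listed region at sites A to E, for RelA at 3 h (red) and 8 h (orange) of LPS and GR with LPS and Dex (blue), 1 library each. Site B has 3 orange bars because 3 regions were listed there at 8 h, and the tallest bar at 3 h is site B (77.2) while at 8 h it is site E (69.7).

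Tag density moved in opposite directions at these sites between 3 h and 8 h. From 77.2 to 46.8, the highest tag density at site B was 0.607 times as high at 8 h, a log2 ratio of -0.72. At site C it was 1.63 times as high (0.71 on the log2 scale) and at site E 1.20 times (0.26). Over all 1556 regions of 3 h that were listed at 8 h the median log2 ratio was 0.04 (quartiles -0.34 and 0.36), so the typical shared region had about the same density in both lists. Site B lay above only 7.46% of the shared regions and site C above 90.9%, both outside the quartiles, while site E lay above 68.2% and within them. The regions shared between the lists give the spread between sites; the spread between repeats of a condition is not known. The readings depend in part on the measure. By mean tag density of its strongest part, site B was 0.803 times as high at 8 h (log2 -0.32). By score, site E had a log2 ratio of 0.28 and lay above the upper quartile of 0.21. Against the denser 50% of shared regions, whose median was -0.23, the distance of site B from the median fell from -0.76 to -0.49 and that of site E rose from 0.22 to 0.49.

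**Figure D4:**
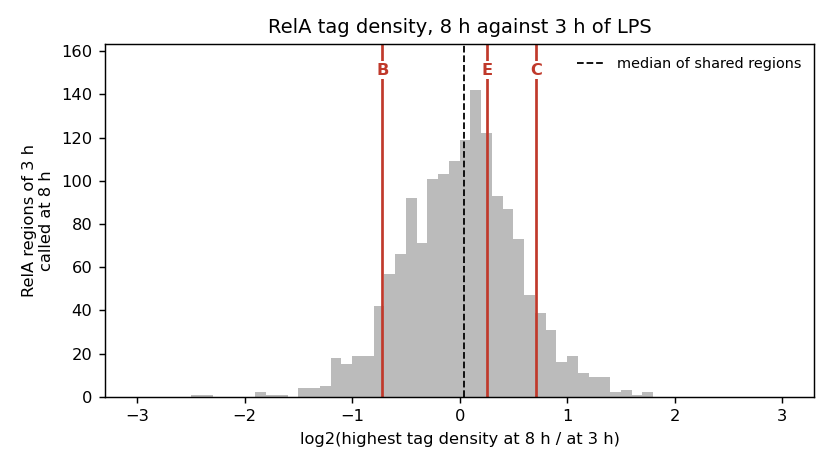
Distribution of the log2 ratio of highest tag density at 8 h over 3 h of LPS for the 1556 RelA regions of 3 h listed at 8 h (grey), with the median (dashed) and sites B, E and C (red lines). Site B lies in the lower tail at -0.72 and site C in the upper part at 0.71. The shared regions are not matched for width, and site B is the widest of them.

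With Dex given 3 h before LPS, no RelA region was listed in the window at 0, 3 or 8 h of LPS. At 3 h, 0 of 4 regions was found in the pretreated list, where 0.241% of the 3 h list was, and at 8 h 0 of 5, where 0.160% was. Nearly the whole list was without calls after pretreatment. Few regions of like strength were also listed with pretreatment at 3 h. They were 2 of the 53 with a score within 10% of that of site B (3.77%, 1.04 to 12.8). Near the score of site E it was 1 of the 154 (0.649%, 0.115 to 3.59). The pretreated lists were short: 33 of 84 regions at 3 h and 15 of 78 at 8 h lay outside input, so most of their regions overlapped input. Those outside input had a median highest tag density of 11.2 and 6.34, against 18.5 and 25.5 in the lists without Dex. With input-overlapping regions kept, the nearest regions of these pretreated lists on chromosome 17 lay 988 kb above the window in both.

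With late Dex, no RelA region was listed in the window either. Of the 8 h list 10.8% was found again with late Dex and of the 3 h list 4.24%, so 0 of 5 and 0 of 4 regions are small counts near those shares. Regions of like strength give a closer reference than the whole list. Of the 57 regions at 8 h with a score within 10% of that of site E, itself included, 31 were listed with late Dex, 54.4% (41.6 to 66.6). For the upper part of site B the share was 22.1% (15.5 to 30.6; 113 regions) and for its lower part 16.96% (12.1 to 23.3; 171). Near the scores of site C and of the middle part of site B it was 6.58% (4.09 to 10.4; 243) and 1.98% (1.08 to 3.61; 505). Among regions within 10% of the highest tag density instead, the share for site C was 20.3% (14.2 to 28.3; 123). By that measure it was 58.1% for site E and 23.5%, 14.6% and 1.99% for the upper, lower and middle parts of site B. Absence with late Dex was thus the more frequent outcome at the scores of 4 of the 5 regions, and about as frequent as presence at that of site E. Counted from 3 h, 29 of the 53 regions near the score of site B were listed with late Dex, 54.7% (41.5 to 67.3), and 34 of the 154 near that of site E, 22.1% (16.3 to 29.3).

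**Figure D5:**
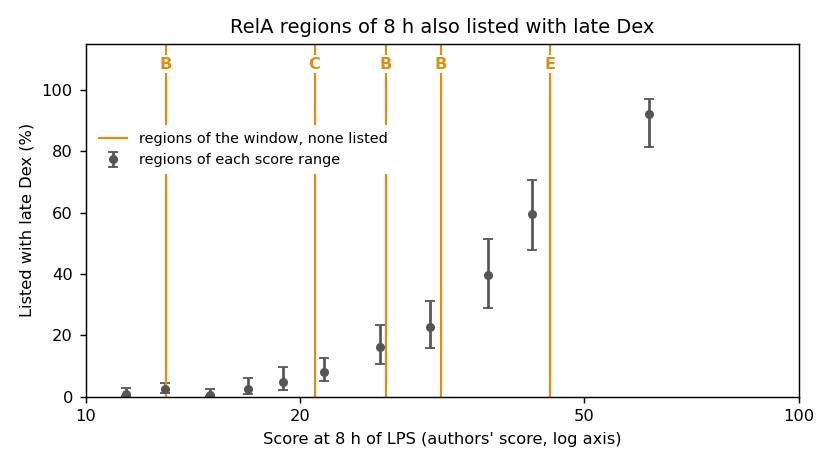
Share of RelA regions of 8 h of LPS that were also listed with late Dex (%), in ranges of the authors' score (grey points at the median score of each range, with Wilson 95% intervals that cover counting error only), against score on a log axis. Orange lines mark the scores of the 5 regions of the window, none of which was listed with late Dex, and the share is 59.7% in the range that holds site E and at most 22.6% in those that hold the others.

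With input-overlapping regions kept, the late Dex list began at a score of 9.85 and a highest tag density of 4.04. Its median density outside input was 23.3. Without Dex, the 5 regions of the window at 8 h had densities from 24.1 to 69.7. The nearest late Dex regions on chromosome 17, not screened for input, were 913 kb below and 988 kb above the window. A region at the place of the second was also the nearest above the window in the 0 h and in all pretreated lists. Dense groups of 8 h regions did not always lack late Dex regions. Among tiles of 80 kb laid along the chromosomes, 11 held at least 5 regions of 8 h, and 6 of these held a region with late Dex. The tile with the 5 regions of the window is itself among the 11 and held no region with late Dex.

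GR was listed at 4 sites with LPS and Dex and at none with Dex alone. Site A (35325131 to 35325579), where no RelA list had a region, was the weakest, with a highest tag density of 12.8 and a score of 10.2, which exceeded 5.92% of the list by score and 71.5% by density. Site B had GR from 35338776 to 35339588 (19.4 and 24.5), site C from 35346919 to 35347617 (28.9 and 25.6) and site E from 35356383 to 35357056 (29.5 and 25.9). GR at sites B, C and E thus spanned a narrower range than RelA at 3 h, and the site highest for RelA at 3 h was the lowest of the 3 for GR. The densities of the 3 exceeded 81.6 to 90.4% of the GR list.

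Of all regions with LPS and Dex, 37.4% met a region of the list with Dex, and 0 of 4 did here. Among regions with a score within 10% of that of the site, the share was 26.0% for site A, 43.0% for site B, 43.1% for site C and 43.2% for site E. Among regions within 10% of its highest tag density it was 11.9%, 9.99%, 19.6% and 20.2%. Seen from RelA, 17.5% of the 3 h regions and 18.4% of the 8 h regions met GR with Dex, and 0 of 4 and 0 of 5 did here. The nearest GR regions with Dex were 162 kb below and 39.1 kb above the window, in a list where 42.9% of the 80 kb tiles were empty. Outside input, the highest tag densities of that list had a median of 2.99 and an upper quartile of 4.18. With both agents these were 4.01 and 14.9, and the scaling between the lists is not stated.

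Of the 4 RelA sites of 3 h, 3 were also GR sites with both agents, beside 62.0% of that list, and of the 5 regions of 8 h 3 were, beside 85.8%. Among 3 h regions with a score within 10% of that of the site, the share that met GR was 96.2% for site B, 85.7% for E, 67.9% for C and 66.5% for D. At 8 h it was 99.1% for the upper part of B, 98.2% for E and 91.4% for C. Site D, not listed at 8 h, was also the RelA site without GR. Its separate standing depends on the joining rule: it lay 421 bp from site E, and joining regions within 500 bp gave 4 sites, with D part of E. Conversely 3 of the 4 GR regions met RelA at 3 h and the same 3 met RelA at 8 h, where 6.05% and 3.13% of the GR list did. That list was mostly weaker, with a median highest tag density of 4.01, below each GR region of the window. The share among GR regions of like strength was not computed, so these percentages are not a like reference. Within the broad site B, GR lay in the upper part alone. Its centre was 86.6% of the way along the 3 h region, and that of the upper 8 h part was 86.1% of the way, 24.5 bp apart. The lower and middle parts had no GR region, although 96.5% (92.6 to 98.4) of the 171 regions of 8 h with a score within 10% of that of the lower part met one, as did 78.4% (74.6 to 81.8) of the 505 near that of the middle part.

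Centres of GR and RelA lay close together at sites C and E as well. For 8 h they were 63 and 8 bp apart, against a median of 44.5 bp (quartiles 19.5 and 86.5) over 1624 overlapping pairs, and for 3 h 126 and 41 bp, against 54 bp (25 and 106) over 3129 pairs. At site C the centre distance was above the upper quartile for 3 h. At the broad site B the 3 h centre was 1828 bp from that of GR. Overlap itself limits how far apart centres can be.

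The window was dense in RelA regions. Of 33024 tiles of 80 kb, 0.427% held at least 4 regions of 3 h and 0.0333%, 11 tiles, at least 5 of 8 h, and 89.8% and 95.7% held none. Of the 5 regions of 8 h, 3 were parts of site B, so by site the window held 3, and 95 tiles held at least 3 regions of 8 h. For GR with LPS and Dex 14.1% of tiles held at least 4 regions, so the GR count was not rare. Beyond the window the nearest RelA region of 3 h was 19.9 kb above (35399851 to 35400102, score 8.93) and 162 kb below, and those of 8 h were 578 and 197 kb away, so the cluster at 8 h ended at site E. GR with LPS and Dex continued 15.98 kb above the window, at 35395975 to 35396348 with a highest tag density of 18.1.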

How the data were processed

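The submitters' processing notes name CASAVA and mm9. How regions were called and how densities were scaled is not stated by any source used here. Each library has 1 list of regions. The deposited highest and mean tag density are signal values, the deposited score is a z-score, and the deposited p-value belongs to the region, all per the file headers. No count test fits these values, and none was made.

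Regions of the window were taken from every list with pandas 2.3.3 (Python 3.11.15). ChIP regions that met an input region by at least 1 bp were left out of the comparisons between lists. They were kept for the distances to the nearest regions beyond the window and for the lowest score and density of a list. Regions met when they shared at least 1 bp. Width is end minus start. Shares carry Wilson 95% intervals (scipy 1.17.1), which cover counting error only. Tag density at 8 h was that of the strongest region met. Overlap and ratio code was tested on simulated data. All RelA sites were named, and GR sites without RelA where tag density was at least 10. The members, lists and motifs were chosen with earlier results of these data known, and shares among regions within 10% of a member's score were added after the values were seen. Gene names and sequences came from RefSeq tables on GRCm38.p6; no gene was placed on mm9.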

Additional observations from a re-analysis of the deposited data

How the results depend on the processing

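Across 31 values and 122 alternative settings, no direction reversed, and the counts of regions, sites and overlaps stayed within 1.5 times except as given below. Many of these settings could not have changed the result. Where a list had no region in the window, a stricter score or overlap could only return 0 again, so such settings are no check. Of the 5 regions of 8 h, 2 rather than 5 met RelA of 3 h when the overlap had to cover 50% of each region or when centres had to lie within 250 bp, since the 3 parts of site B are each far narrower than the 3 h region. The log2 ratio of 8 h over 3 h less the median of shared regions was -0.76 at site B, and -0.43 by mean tag density, -0.70 by score and -0.49 against the denser 50% of shared regions. At site C it was 0.67, then 0.63, 0.58 and 0.94, and at site E 0.22, then 0.22, 0.43 and 0.49. With the higher-scoring 50% of each list, 0.130% of tiles held as many RelA regions of 3 h and 8.62% as many GR regions of LPS and Dex as the window. No ratio could be given for late Dex or for GR with Dex, which had no region in the window. No paired analysis was possible because each condition had 1 library. Depth is not given, so a site that was not listed may be below detection.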

Other observations

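Promoters of 14 genes of tumour necrosis factor signalling (among them receptors, adaptors, NF-κB subunits and inhibitors) were searched with the same letters as those of Tnf, Lta and Ltb. Of these genes, 11 had a sequence in the RefSeq table. GGG, any 5 bases and CC was found in 10 of them, and the tighter GGGA, any 4 bases and CC in 7: Birc3, Nfkb2, Nfkbia, Rela, Tnfaip3, Tnfsf14 and Traf2. Over all promoter windows the shares were 50.8% and 20.7%. Those shares count windows, whereas the 10 and 7 count genes. The 14 genes were picked by hand, and enrichment was not tested. None of the 11 held the GR letters GNACA, any 3 bases and TGTNC, and Tnfaip3 alone held AGAACA. No binding region was tied to these genes, since the lists give positions on mm9 and no gene names.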
